A study of Mus musculus with 6 samples.

Results

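A group of 9 interferon-stimulated genes was followed in the livers of fasted mice with and without deletion of *Pak4* in hepatocytes, namely *Ifit1*, *Ifit2*, *Ifit3*, *Isg15*, *Irf7*, *Irf1*, *Stat2*, *Usp18* and *Rsad2*. They were taken by symbol from a table of 45777 genes, and all 9 were found and passed the filter on low counts. The RNA came from the whole liver of male C57BL/6 mice of 8 weeks that had been fasted for 24 h. WT mice were Pak4 flox/flox and LKO mice were Alb-Cre; Pak4 flox/flox, with 3 mice in each group. Both groups carried the floxed alleles, whereas Cre, driven by the albumin promoter of hepatocytes, was present in LKO mice alone, so the effects of Cre and of *Pak4* loss cannot be told apart.

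Interferons are secreted signals that put cells into an antiviral state. Type I interferons bind IFNAR1 and IFNAR2, whose kinases TYK2 and JAK1 phosphorylate STAT2, which enters the complex ISGF3 together with IRF9. ISGF3 binds the interferon-stimulated response element (ISRE) in front of genes such as *Ifit1*, *Isg15* and *Rsad2*. Interferon-γ signals through IFNGR1, IFNGR2, JAK1 and JAK2 to genes with a gamma-activated site (GAS), such as *Irf1*. In the liver, hepatocytes and resident immune cells both respond to interferons.

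The sequence in front of the members' starts is shown for these elements. RefSeq start windows (GRCm38.p6) matched 8 of the 9 members, without an entry for *Usp18*. The 250 bases before the start were searched on both strands for a core of the ISRE, GAAA and GAAA with any 2 bases between them, and for a core of the GAS, TTC and GAA with any 3 bases between them, whose pattern is the same on both strands. The ISRE core stood in 2.98% and the GAS core in 7.02% of the 32851 windows of all genes. Among the members, *Ifit1*, *Ifit3*, *Isg15*, *Rsad2* and *Stat2* held the ISRE core, *Irf1* and *Ifit2* held the GAS core, and *Irf7* held neither in its window. The *Irf7* window (chr7:141266425-141266674, minus strand) runs into the *Irf7* gene, whose span reaches 141266499, so fewer than 250 bases before that end were searched. *Ifit2* and *Irf1* also had a further window without the core. Both *Ifit2* windows and the further *Irf1* window overlap the RefSeq span of their own gene. The *Ifit3* window (chr19:34583279-34583528) lies within the RefSeq span of *Ifit3*, which begins at 34583119, so the start it precedes is downstream of that base. Of the members' 10 windows, 5 held the ISRE core and 2 the GAS core. These are matches of letters in a short window and say nothing about binding in these livers. The 2 ISRE cores of *Ifit1* lie 104 and 85 bases before its start and fit in 29 bases of chr19:34640785-34640813 on the plus strand, shown with the cores in capitals. The ISRE core of *Stat2*, 222 bases before its start, is shown likewise in 30 bases of chr10:128270266-128270295 on the plus strand.
Ifit1: TTTCACTTTCcagtctcagTTTCAGTTTC
Stat2: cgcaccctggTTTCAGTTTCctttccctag
The letters of both *Ifit1* cores, TTTCACTTTC and TTTCAGTTTC, occur in the *Ifit3* window, 156 and 122 bases before the start used there. In the GENCODE M21 annotation neither stretch touches a gene, whereas RefSeq spans do cover them, those of *Ifit1bl1* and *Ifit1bl2* (which ends at 34640827) for *Ifit1* and that of *Apof* for *Stat2*. The 250-base windows of 3 further members are given below in gene orientation, with the ISRE cores of *Isg15* (chr4:156200819-156201068, minus strand) and *Rsad2* (chr12:26456453-26456702, minus strand) and the GAS core of *Irf1* (chr11:53769764-53770013, plus strand) in capitals. *Isg15* held 3 ISRE cores, each overlapping the next, from 78, 72 and 66 bases before its start.
Isg15: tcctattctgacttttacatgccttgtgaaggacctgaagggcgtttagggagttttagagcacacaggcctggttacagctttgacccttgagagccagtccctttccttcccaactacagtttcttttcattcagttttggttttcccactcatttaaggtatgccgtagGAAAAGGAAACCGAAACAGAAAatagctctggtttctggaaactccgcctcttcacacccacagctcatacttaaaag
Rsad2: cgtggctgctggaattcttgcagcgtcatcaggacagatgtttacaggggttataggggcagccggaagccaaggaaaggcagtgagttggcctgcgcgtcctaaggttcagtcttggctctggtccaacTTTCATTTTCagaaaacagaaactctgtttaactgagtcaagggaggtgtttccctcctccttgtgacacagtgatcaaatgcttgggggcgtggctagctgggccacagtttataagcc
Irf1: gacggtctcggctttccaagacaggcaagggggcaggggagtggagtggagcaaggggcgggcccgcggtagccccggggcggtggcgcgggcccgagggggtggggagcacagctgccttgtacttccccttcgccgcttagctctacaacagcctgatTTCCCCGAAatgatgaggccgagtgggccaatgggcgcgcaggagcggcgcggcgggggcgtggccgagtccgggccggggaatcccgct
These 3 windows overlap no gene or UTR of GENCODE M21 and no RefSeq gene span.

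The table held between 45934632 and 59576437 read counts per mouse. CPM values, the counts of a gene relative to those of its library, were scaled by TMM, which assumes that most genes do not change, with factors of 1.28 to 1.43 in WT and 0.639 to 0.816 in LKO mice. The noncoding RNAs 7SL and 7SK moved with genotype, 7SL taking 4.55 to 5.24% of the WT reads against 11.2 to 15.8% in LKO mice, and 7SK taking 0.499 to 0.606% against 2.33 to 2.63%. Their part in the results below was not tested. *Pak4* itself stood at 3.59, 3.21 and 4.097 CPM in WT mice against 1.93, 1.49 and 3.22 CPM in LKO mice, with a log2 fold change of -0.71 (SE 0.31, edgeR adjusted p = 0.10), so the library labelled LKO 3, named LKO 3 below, had a *Pak4* level within the range of the WT mice. Without this mouse the change was -1.08 (adjusted p = 0.015).

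After TMM scaling, *Irf1* and *Stat2* were lower in LKO livers, and the other 7 members overlapped between the genotypes. *Irf1*, the transcription factor that carries interferon-γ signals to antigen presentation genes, stood at 21.2, 41.5 and 32.4 CPM in WT mice and at 16.3, 10.7 and 8.93 CPM in LKO mice. Every LKO mouse was below every WT mouse, although WT 1 and LKO 1 came near each other. The log2 fold change was -1.40 (SE 0.30, n = 3 and 3, edgeR adjusted p = 0.0064), a 2.65-fold lower level. *Stat2*, the ISGF3 subunit that carries its activation domain, stood at 28.6, 36.6 and 32.0 CPM in WT mice and at 13.1, 13.2 and 8.41 CPM in LKO mice. The groups were well separated, with a log2 fold change of -1.48 (SE 0.21, edgeR adjusted p = 0.0010), or 2.80-fold lower. Both genes stayed past the threshold under each of the 22 alternative settings, between -2.91 and -1.19 for *Irf1* and between -2.98 and -1.30 for *Stat2*. Of the 18636 genes tested, 40.1% were called, 20.5% lower and 19.6% higher in LKO livers, and the 2 of 9 members called lower are to be read against these shares. In CPM after TMM, 27.9% of all genes had the 3 LKO mice below the 3 WT mice. In whole liver, fewer cells of a type and less RNA per cell cannot be told apart.

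**Figure D1:**
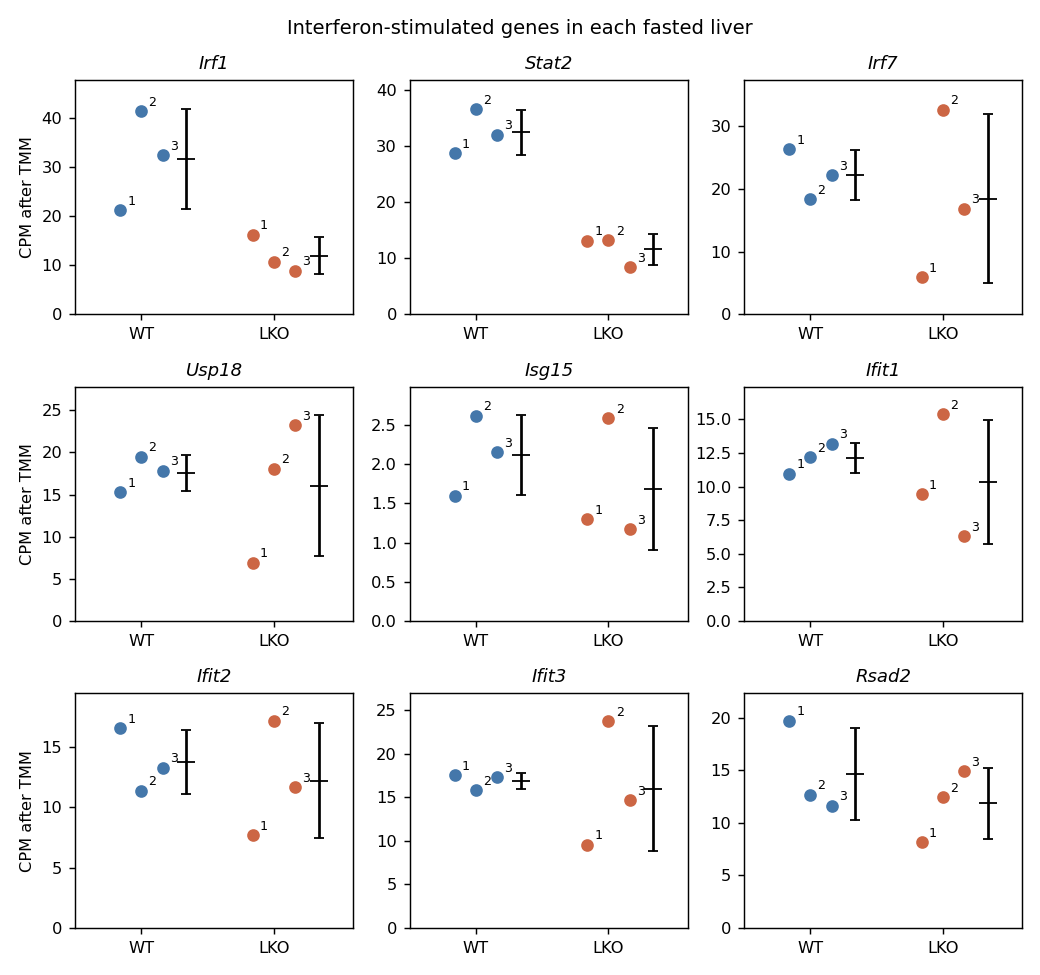
CPM after TMM of each member (vertical axis, from 0) in the 3 WT and 3 LKO mice, numbered beside the points, with the mean ± SD at the right of each group. *Irf1* and *Stat2* do not overlap between the genotypes, and LKO mouse 2 is at the top of the LKO group for *Irf7*, *Isg15* and the 3 *Ifit* genes.

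None of the antiviral effectors among the members was called after TMM. *Ifit1*, *Ifit2* and *Ifit3* encode proteins that bind foreign RNA or block its translation, and they lie together on chromosome 19 (34640889-34650009, 34550550-34576534 and 34583119-34588982). *Ifit1* was measured at 10.9, 12.2 and 13.2 CPM in WT mice and at 9.45, 15.4 and 6.29 CPM in LKO mice. Its WT mice were close together, while the LKO mice lay on both sides of them. *Ifit2* stood at 16.6, 11.4 and 13.3 CPM against 7.70, 17.2 and 11.7 CPM. *Ifit3* stood at 17.5, 15.8 and 17.3 CPM against 9.56, 23.7 and 14.7 CPM. For all 3 genes LKO 2 was the highest of the 6 mice. The log2 fold changes were -0.23 (SE 0.30) for *Ifit1*, -0.17 (SE 0.29) for *Ifit2* and -0.081 (SE 0.29) for *Ifit3*, with edgeR adjusted p-values of 0.57, 0.66 and 0.84. *Ifit3* has a close copy, *Ifit3b*, and *Ifit1* lies within the span given for *Ifit1bl1*, so reads may be split between them. *Ifit3b* had a log2 fold change of -0.010 (adjusted p = 0.98) and the same order of LKO mice, at 3.29, 8.46 and 5.34 CPM.

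*Rsad2*, which encodes viperin, an enzyme that makes a chain-terminating nucleotide, was measured at 19.7, 12.7 and 11.7 CPM in WT mice and at 8.18, 12.4 and 14.9 CPM in LKO mice. LKO 1 was below every WT mouse, and the other LKO mice were inside the WT range. Its log2 fold change was -0.31 (SE 0.28, edgeR adjusted p = 0.40). *Isg15*, a ubiquitin-like protein that is conjugated to other proteins, was the lowest member, at 1.596, 2.61 and 2.15 CPM in WT mice against 1.30, 2.58 and 1.17 CPM in LKO mice, from 54 to 171 reads. Its log2 fold change was -0.34 (SE 0.37, adjusted p = 0.49), and it moved to -0.94 (SE 0.34, adjusted p = 0.056) when a trend with gene length was taken out in each mouse. *Isg15* is the shortest of the 9 genes by the ratio of its counts to its FPKM.

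*Usp18* encodes the protease that removes ISG15 from proteins and that also restrains IFNAR signaling. It was measured at 15.3, 19.5 and 17.8 CPM in WT mice and at 6.91, 18.0 and 23.2 CPM in LKO mice. LKO 1 was below and LKO 3 above every WT mouse, which left a log2 fold change of -0.13 (SE 0.37, edgeR adjusted p = 0.81). *Irf7*, the transcription factor that amplifies type I interferon production, had the widest range among LKO mice of any member, at 26.3, 18.3 and 22.2 CPM in WT mice and at 5.91, 32.6 and 16.8 CPM in LKO mice. The lowest and the highest of the 6 mice were both LKO mice. The log2 fold change was -0.27 (SE 0.49, adjusted p = 0.69).

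All 9 log2 fold changes were below 0 after TMM, with a median of -0.27 against -0.039 over all genes tested. The scaling decided how far they lay below 0. With total counts in place of TMM, all 9 members were called lower, between -0.99 for *Ifit3* and -2.36 for *Stat2* with a median of -1.19, where 51.4% of all genes were called lower, 6.26% higher, and the median of all genes was -0.90. No member overlapped between the genotypes in TPM, and the mean was 3.18-fold lower for *Usp18*, 7.64-fold lower for *Irf1* and 8.26-fold lower for *Stat2*, the other members lying between 3.22 and 3.88. In TPM, 74.9% of all genes had the 3 LKO mice below the 3 WT mice. With limma on log2(TPM + 1), all 9 members were called lower with a median of -1.55, beside 71.5% of all genes and an all-gene median of -0.79.

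**Figure D2:**
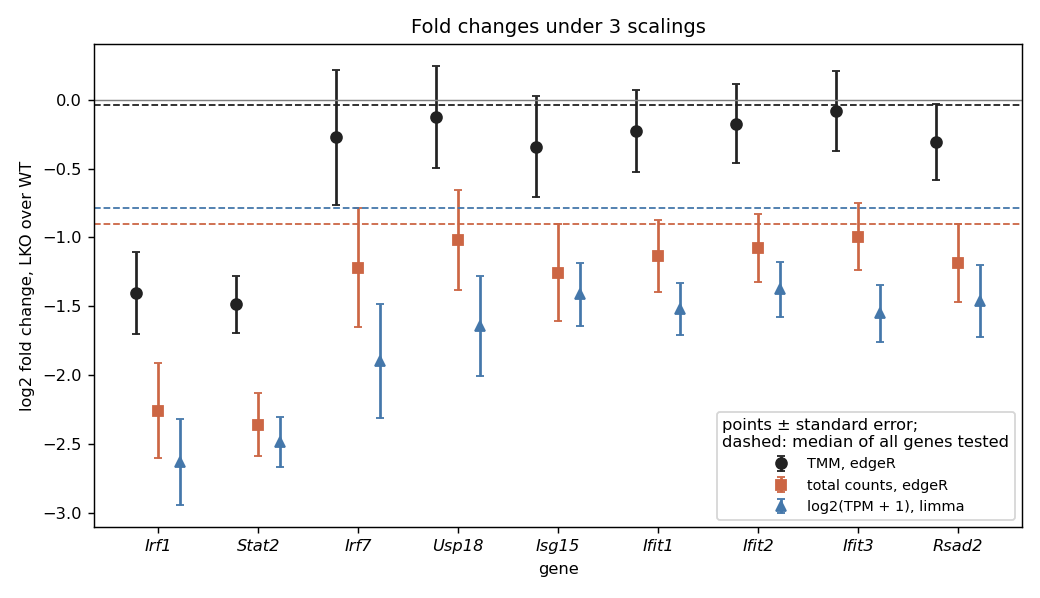
Log2 fold change, LKO over WT (vertical axis), of each member with its standard error under 3 scalings, and the median of all genes tested under each as a dashed line. *Irf1* and *Stat2* lie furthest below the all-gene line under each scaling, and the other 7 members lie between -0.081 and -0.34 after TMM.

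The rank of a gene within its own mouse does not depend on the scaling between libraries. In percentiles of TPM among the 13858 protein-coding genes tested, *Irf1* stood at 76.3, 86.9 and 83.2 in WT mice and at 72.2, 62.8 and 58.6 in LKO mice. *Stat2* stood at 67.8, 74.1 and 70.1 in WT mice and at 53.0, 53.0 and 42.7 in LKO mice. Neither gene overlapped between the genotypes, and 27.7% of the protein-coding genes had the 3 LKO mice below the 3 WT mice on this measure. The exact permutation test of 3 against 3 mice cannot give a p-value under 0.1. The other 7 members overlapped, with mean percentiles that differed least for *Ifit2* (52.8 ± 4.5 in WT and 52.4 ± 8.1 in LKO mice, SD) and most for *Irf7* (80.3 ± 2.4 and 71.4 ± 14.97).

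Levels between the genes can be compared in TPM, which is per length. In WT livers the order of mean TPM was *Irf1* (28.5 ± 9.92, SD, n = 3), *Irf7* (24.0 ± 3.90), *Usp18* (19.5 ± 3.22), *Ifit3* (16.7 ± 0.423), *Stat2* (14.3 ± 2.51), *Ifit1* (9.02 ± 0.822), *Rsad2* (7.64 ± 2.32), *Ifit2* (6.80 ± 1.19) and *Isg15* (5.53 ± 1.596). Of the 8 neighbouring pairs in this order, 7 overlapped between mice, the exception being *Stat2* and *Ifit1*. In LKO livers *Irf7* (6.46 ± 3.82 TPM), *Usp18* (6.14 ± 3.60 TPM) and *Ifit3* (5.18 ± 1.54 TPM) led. *Irf1* came next (3.73 ± 1.503 TPM), then *Ifit1* (2.54 ± 0.690 TPM), *Rsad2* (2.13 ± 0.768 TPM), *Ifit2* (2.02 ± 0.517 TPM), *Stat2* (1.73 ± 0.370 TPM) and *Isg15* (1.42 ± 0.381 TPM). All 8 neighbouring pairs overlapped there. *Irf1* thus moved from rank 1 to rank 4 and *Stat2* from rank 5 to rank 8, while the other 7 members kept their order relative to each other.

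The LKO mice differed from each other in these genes more than the WT mice did. The ratio of the highest to the lowest mouse in CPM after TMM had a median of 2.23 over the members in LKO and 1.44 in WT mice, against 1.42 and 1.28 over the 12999 genes that averaged 1 CPM or more. It was largest for *Irf7* (5.52) and *Usp18* (3.36) in LKO mice. Among the 7 members other than *Irf1* and *Stat2*, LKO 2 was the highest LKO mouse for 5 and the lowest for 0, and LKO 1 was the lowest for 5. Over the 12999 genes LKO 2 was the highest for 34.6% and LKO 1 the lowest for 35.2%. The same mice stood out in the 66 other antiviral effectors tested, where LKO 2 was the highest for 47 (71.2%) and LKO 1 the lowest for 43 (65.2%). The WT mice were also unevenly ordered there, WT 2 being the highest for 35 (53.0%) and WT 3 the lowest for 37 (56.1%). *Irf1* did not share the order of the LKO mice, since LKO 1 was its highest LKO mouse. Without LKO 1, the log2 fold changes of *Ifit2* (0.068), *Ifit3* (0.18), *Irf7* (0.15) and *Usp18* (0.23) lay above 0, with edgeR adjusted p-values from 0.37 to 0.85, while *Irf1* (-1.69) and *Stat2* (-1.59) were still called lower, beside 17.9% of all genes. Without LKO 2, those 4 genes stood at -0.51, -0.48, -0.97 and -0.22 and were again not called. Without LKO 3, *Irf1* (-1.23) and *Stat2* (-1.30) were again called, *Ifit1* stood at 0.031, and 19.8% of all genes were called lower. The *Pak4* level of LKO 3 lay within the WT range in CPM after TMM but not in TPM.

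**Figure D3:**
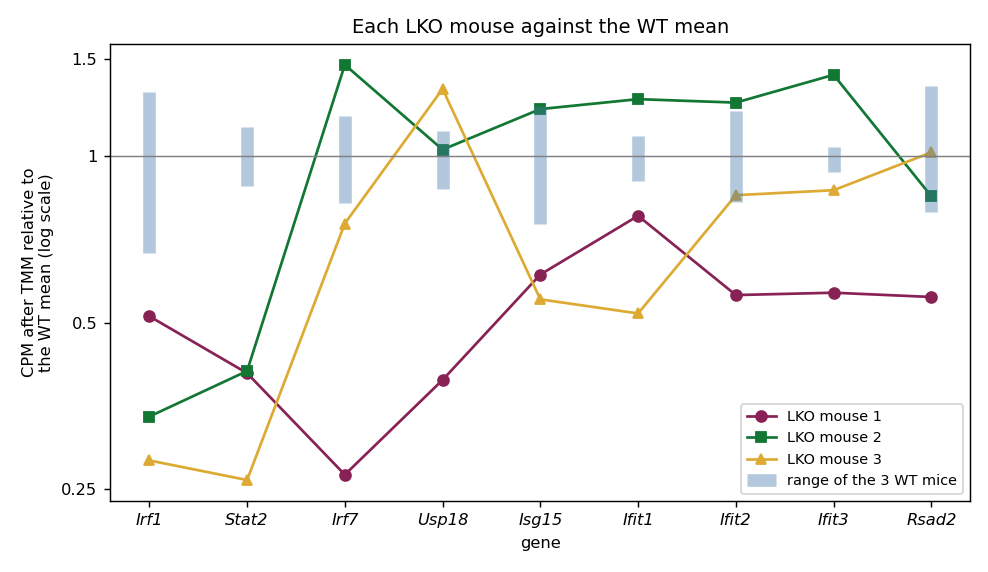
CPM after TMM of each member in each LKO mouse relative to the WT mean (vertical log axis, 1 is the WT mean), with lines joining the points of a mouse and bars for the range of the 3 WT mice. *Irf7* spreads from 0.265 in LKO 1 to 1.47 in LKO 2, whereas all 3 LKO mice are at 0.514 or below for *Irf1* and at 0.409 or below for *Stat2*.

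The genes most like the members' mean profile over the 6 mice were sought by the root mean square difference of centred log2(CPM + 0.5) values among 12999 genes. They were *Pfkfb4* (0.058 log2 units), *Irf9* (0.073), *Tbc1d9* (0.092), *Gm38676* (0.10) and *Tbc1d22b* (0.11). The members themselves lay further from their mean profile, from 0.24 (*Ifit3*) to 0.65 (*Irf1*), so likeness to it is not likeness to a given member. *Irf9*, the DNA-binding subunit of ISGF3, stood at 21.6, 24.96 and 24.8 CPM in WT mice and at 12.6, 23.9 and 14.8 CPM in LKO mice. LKO 2 lay inside the WT range and LKO 1 and LKO 3 below it, and the log2 fold change of -0.48 (SE 0.24) was not called (edgeR adjusted p = 0.14).

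The members were also compared with each other and with other IRF genes within each mouse by ratios of TPM, which scaling between libraries does not change. The ratio of *Stat2* to *Irf9* was 0.725, 0.822 and 0.711 in WT mice against 0.581, 0.307 and 0.316 in LKO mice, without overlap (p = 0.1 by the two-sided exact permutation test, the smallest possible, 0.25 after adjustment over 5 ratios). The ratio of *Stat2* to *Ifit3* was 0.858 ± 0.160 in WT and 0.374 ± 0.208 in LKO mice, also without overlap (exact p = 0.1, adjusted 0.25). The ratios of *Irf1* to *Irf2* (exact p = 0.3), *Irf1* to *Irf7* (exact p = 0.8) and *Usp18* to *Isg15* (exact p = 1) overlapped between the genotypes. None of the 5 passed the threshold, which 3 against 3 mice cannot reach.

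The rest of the pathway was described from lists of 182 genes by role, of which 157 could be tested. A value beside a gene name below is its log2 fold change after TMM. After TMM, 14 were called higher and 52 lower, with a median of -0.47, beside 19.6% and 20.5% of all genes. The counts after TMM for each list below are to be read against the same shares. With 1 mouse left out, the higher calls ranged from 7 (without WT 3) to 19 (without LKO 1), with 8 without LKO 2, LKO 3 or WT 2, and 9 without WT 1. With total counts, 3 were called higher and 123 lower, beside 6.26% and 51.4% of all genes. Of 21 interferon genes in the table, 17 had no read in any mouse and none could be tested. *Ifng*, named here after its values were seen, had 5, 7 and 7 reads in WT mice and 0 in each LKO mouse, where a count of 0 allows up to 3 reads, so no fold change was computed. The other 3 with any read, *Ifnab*, *Ifnk* and *Ifnz*, had at most 2 reads in a mouse.

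Among the receptors, their kinases, *Stat3* and *Irf9*, 1 of 10 tested genes was called higher and 3 lower, with a median of 0.12. *Tyk2* fell by 1.01, *Il10rb* by 0.61 and *Ifnar1* by 0.41 on the log2 scale. The call of *Tyk2* held with any mouse left out, that of *Il10rb* was lost without WT 1, WT 2, LKO 1 or LKO 2, and that of *Ifnar1* when any mouse but LKO 3 was left out. *Ifnar2* rose by 0.58 after TMM (adjusted p = 0.012), but stood at -0.28 with total counts (adjusted p = 0.17) and was not called without WT 2 (0.51). *Ifngr1* (0.35), *Ifngr2* (0.28), *Jak1* (0.29), *Jak2* (0.15) and *Stat3* (0.094) were not called after TMM and lay below 0 with total counts. *Ifnlr1* had too few reads to test.

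Of the other IRF genes and IRF2-binding proteins, *Irf4* alone of 8 was called, with a log2 fold change of -1.86 (SE 0.39, edgeR adjusted p = 0.0060) at 1.21 to 1.56 CPM in WT and 0.238 to 0.545 CPM in LKO mice. *Irf2* (-0.55), *Irf3* (-0.15), *Irf5* (-0.51), *Irf8* (-0.33), *Irf2bp1* (-0.036), *Irf2bp2* (0.83) and *Irf2bpl* (0.42) were not called. In nucleic acid sensing, which feeds IRF3 and IRF7, 2 of 18 genes were called higher and 4 lower, and without LKO 2 these counts were 0 and 7. The adaptor *Traf3* (-2.16), the mitochondrial adaptor *Mavs* (-1.87) and the kinase *Ikbke* (-1.44) fell, and *Tlr7* (1.24, adjusted p = 0.049) rose. *Tlr7* was called without LKO 1 but not without any of the other 5 mice, with a lowest value of 0.83 without LKO 3 (adjusted p = 0.16).

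Of the 3 ISG15 conjugation enzymes and of the 7 neighbours of the *Ifit* genes, 1 each was called, beside 40.1% of all genes. *Uba7*, which activates ISG15, fell by 1.14 (SE 0.24, edgeR adjusted p = 0.0068), and *Ube2l6* (-0.73) and *Herc6* (0.067) were not called. *Lipa*, a lysosomal lipase gene next to the *Ifit* genes, was the 1 of 7 neighbours that was called (-1.04, SE 0.23). Of 66 other antiviral effectors, 9 were called higher and 14 lower after TMM, with a median of -0.30, beside 19.6% and 20.5% of all genes. *Slfn9* (-2.30), *Oasl1* (-2.06) and *Ifi27l2b* (-1.91) fell. *Ifi208*, of the *Ifi200* cluster, rose by 5.24 from 0 to 0.151 CPM in WT to 1.70 to 3.73 CPM in LKO mice. The higher calls were 6 without LKO 2, LKO 3 or WT 3 and 14 without LKO 1. With total counts, 3 of the 66 were called higher and 45 lower, beside 6.26% and 51.4% of all genes.

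Most of the listed genes linked to interferon-γ were called lower. Of 31 GTPases, chemokines and antigen presentation genes tested, 24 were called lower and 0 higher after TMM, with a median of -1.47, beside 20.5% of all genes called lower. The list was chosen with earlier results of these data known, and it left out the antigen presentation gene *B2m* (0.16, edgeR adjusted p = 0.66). Whether this list differs from the members was not tested. *Cxcl10*, a chemokine for T cells, stood at 4.399, 10.5 and 7.86 CPM in WT mice and at 0.523, 0.545 and 0.173 CPM in LKO mice, with a log2 fold change of -4.21 (SE 0.48). *Ciita*, the regulator of MHC class II genes, fell by 3.57 (SE 0.41). *Gbp10* (-4.02) and *Gbp11* (-3.47), guanylate-binding GTPases, also fell, though the *Gbp* genes are near copies that can share reads. With WT 1 left out the count was 22, and with LKO 3 left out it was 27. With total counts all 31 were called lower, beside 51.4% of all genes. Of 14 negative regulators, *Rnf125* (0.98) rose, and *Tnfaip3* (-0.92), *Pias4* (-0.88) and *Ptpn6* (-0.74) fell, among 2 called higher and 4 lower. *Rnf125* was not called with total counts (0.14) or without WT 2, WT 3 or LKO 3, and with any 1 of these 3 mice left out no negative regulator was called higher. *Pias4* was not called without WT 3 or LKO 2.

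**Figure D4:**
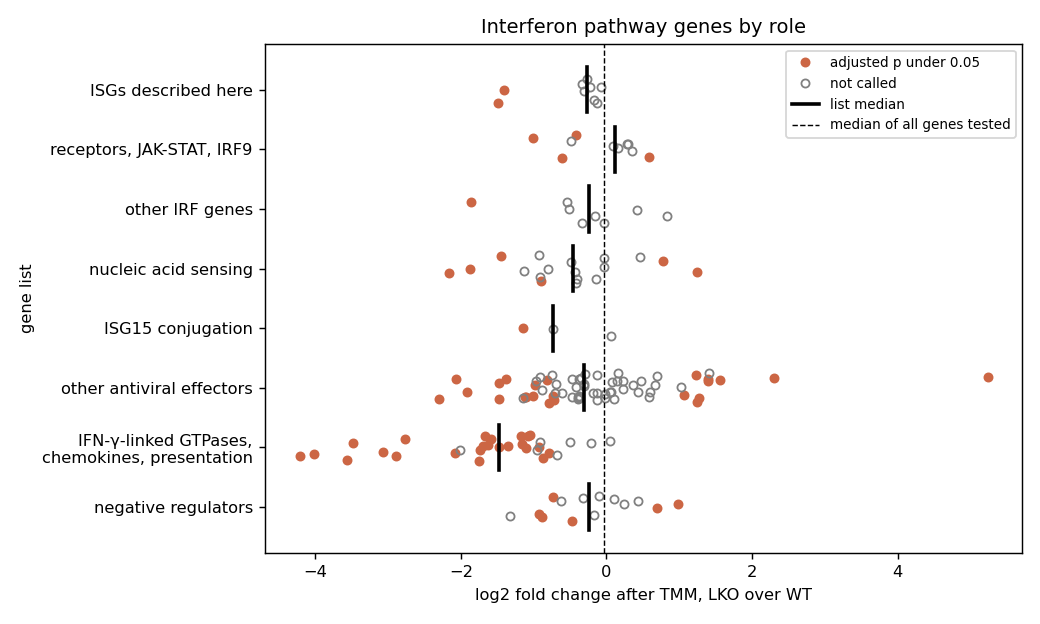
Log2 fold change after TMM, LKO over WT (horizontal axis), of each tested gene by role, with called genes filled, the list median as a bar and the median of all genes as a dashed line. The interferon-γ-linked list has its median at -1.47, and the members and the other antiviral effectors have theirs at -0.27 and -0.30.

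Markers of cell types that make or answer interferons were counted likewise, and their part in these results was not tested. The calls are to be read against all genes, of which 19.6% were called higher and 20.5% lower after TMM. With total counts these shares were 6.26% and 51.4%. The gene named for a list below is its most abundant by TPM, unless said otherwise. The hepatocyte marker *Alb* stood at 19641 to 23812 CPM in WT and 60635 to 83840 CPM in LKO mice, so hepatocyte RNA was present in every library. Of 5 hepatocyte markers, 3 were called higher and 1 lower, the latter being *Ttr* (-1.35), named after its value was seen. Of 9 T and NK cell markers, 8 were tested, with 1 called higher and 3 lower, and their summed level was 8.06 to 11.5 CPM in WT and 4.77 to 7.81 CPM in LKO mice. The tested T and NK cell markers ranged from -3.37 to 2.37, and *Trbc2*, the most abundant, was not called (-0.25). *Cd3d*, named after its values were seen, had no read in any LKO mouse and was the marker not tested. Plasmacytoid dendritic cell markers summed to 100.8 to 111 CPM in WT and 66.7 to 95.2 CPM in LKO mice, with *Bst2*, itself interferon-stimulated and counted in the effector list too, lower (-1.01, lost without WT 1, WT 3 or LKO 1), 0 of 5 higher and *Cox6a2* at 0 in all mice. Kupffer cell and macrophage markers summed to 274 to 414 CPM in WT and 445 to 865 CPM in LKO mice, with 4 of 8 called higher and 1 lower, and LKO 2 held the highest sum. With total counts 2 were called higher and 3 lower, and *Cd5l* stood at 0.86 after TMM and at -0.073 with total counts. B cell markers had 0 of 4 called, at 2.01 to 3.33 CPM in WT and 1.49 to 3.75 CPM in LKO mice. Neutrophil and monocyte markers, among them *S100a9* (2.31, not called without LKO 2), had 2 of 5 called higher and 1 lower, with sums of 10.3 to 21.6 CPM and 18.0 to 37.5 CPM and *Ly6g* at 0 in 5 of 6 mice. Endothelial markers, among them *Clec4g* (1.53), had 4 of 6 called higher and 0 lower, at 227 to 271 CPM and 398 to 422 CPM. Stellate cell markers, among them *Dcn* (2.12), had 2 of 6 called higher and 0 lower, at 215 to 251 CPM and 547 to 811 CPM. With total counts the endothelial markers had 2 called higher and 2 lower, and the stellate cell markers 1 higher and 2 lower. *Spp1* (-1.09) was the 1 of 4 cholangiocyte markers called, and was not called without WT 1 or LKO 1.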

How the data were processed

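Total RNA of 6 livers was sequenced with 1 library per mouse. The labels name a kit for mRNA with 1 µg of RNA, the methods a kit for total RNA with 0.5 µg. The submitters' processing notes name HISAT2 2.1.0, Bowtie2 2.3.4.1 and StringTie 2.1.3b with mm10; use of strand is not given in the sources used here. The authors deposited read counts, FPKM and TPM per gene. FPKM gave only the relative gene length.

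The members and gene lists were chosen with earlier results of these data known. Named genes were the 9 members, every tested receptor, JAK-STAT and IRF gene other than those not reported here, up to 4 called genes with the largest change and at least 1 CPM from each other interferon list, the most abundant gene of each cell list, *Pak4*, and the 5 most similar profiles. Genes with more than 1 zero count among 6 mice were left out, and edgeR 4.0.16 (R 4.3.3) quasi-likelihood tests on the deposited counts with TMM were adjusted by Benjamini-Hochberg over 18636 genes, with calls at an adjusted p under 0.05. The labels number the mice without saying that a number is shared, and the p-values measure the spread between these mice. Alternatives were edgeR's exactTest, DESeq2 1.42.0 and its size factors, upper-quartile factors, 3 other filters, total counts, limma 3.58.1 on TPM with pseudocounts of 1 and 0.1, gene length offsets (lowess span 0.3), the replicate block, and each mouse left out. Protein-coding genes alone, with TMM or with their total counts, were added after seeing the data. The test was checked on simulated data in which 200 of 18449 genes changed by 2 log2 units, as many up as down. With 40.1% of genes called in the real data, this check cannot bear on the choice of scaling.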

Additional observations from a re-analysis of the deposited data

How the results depend on the processing

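The scaling is the main limit on these results. With total counts, all 9 members and 126 other pathway genes were called, and with total counts of protein-coding genes alone 9 and 111, against 2 and 66 after TMM. Over all genes, total counts of protein-coding genes called 1013 higher and 7393 lower. With limma, the members called were 9 in each case, the other pathway genes 137 (log2(TPM + 1)), 136 (log2(TPM + 0.1)) and 134 (log2(TPM + 1) without a filter), and all genes called 13775, 14002 and 13792, against 7476 after TMM. The split of all calls was 3661 higher and 3815 lower after TMM, 1167 and 9575 with total counts, and 453 and 13322 with log2(TPM + 1). *Irf1* and *Stat2* were called under all 22 alternatives. At 54 to 171 reads, *Isg15* is the member that depth limits most.

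With total counts, the log2 fold changes of *Ifnar2* (-0.28), *Ifngr1* (-0.53), *Ifngr2* (-0.59), *Jak1* (-0.58), *Jak2* (-0.72), *Stat3* (-0.80), *Irf2bp2* (-0.0031), *Irf2bpl* (-0.45), *Cd5l* (-0.073) and *Cd79b* (-0.81) reversed. With total counts of protein-coding genes they were -0.11 for *Ifnar2*, -0.36 for *Ifngr1*, -0.41 for *Ifngr2*, -0.41 for *Jak1*, -0.54 for *Jak2*, -0.62 for *Stat3*, -0.27 for *Irf2bpl* and -0.63 for *Cd79b*. With log2(TPM + 1), with or without a filter, *Ifnar2* (-0.83), *Ifngr1* (-1.11), *Ifngr2* (-1.09), *Jak1* (-1.20), *Jak2* (-1.21), *Stat3* (-1.37), *Irf2bp2* (-0.73), *Irf2bpl* (-0.58), *Tlr7* (-0.27), *Rnf125* (-0.55), *Cd5l* (-0.75), *Cd79b* (-0.76) and *Clec4g* (-0.0094) reversed. With log2(TPM + 0.1) the same genes stood at -0.86, -1.19, -1.25, -1.24, -1.36, -1.45, -0.87, -0.97, -0.39, -0.56, -0.76, -1.40 and -0.0098 in that order. Under these settings the median of all genes also lay below 0, at -0.90 with total counts and -0.79 with log2(TPM + 1).

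With 1 mouse left out, the log2 fold changes ranged from -0.62 to 0.031 for *Ifit1*, from -0.51 to 0.068 for *Ifit2*, from -0.48 to 0.18 for *Ifit3*, from -0.97 to 0.15 for *Irf7*, from -0.50 to 0.23 for *Usp18*, from -0.095 to 0.26 for *Stat3*, from -0.12 to 0.068 for *Irf2bp1* and from -0.23 to 0.25 for *Cd79b*. *Irf2bp1* (-0.036 after TMM) stood at 0.046 with upper-quartile factors, 0.065 with gene length offsets, 0.059 with these and the replicate block, and 0.030 with protein-coding genes alone. *Cd79b* stood at -0.15 with gene length offsets, -0.20 with these and the replicate block, and -0.0023 with the replicate block. The cause of these reversals was not tested.

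The deviations of same-numbered mice from their group means correlated at 0.00023, -0.039 and -0.056, so no shared shift was seen. This cannot show whether same-numbered mice were paired, which the labels do not state. With the replicate block, 6431 of the 18636 genes tested, 2 members and 66 other pathway genes were called. With the block and gene length offsets 3 members were called, *Isg15* being the third, beside 6252 of all genes tested.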
